A study of Mus musculus with 9 samples.

Results

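Gene expression in dermal cells of newborn mice sorted on CD49f was deposited for 84809 gene rows, of which 59863 carried no gene symbol. Of the rows without a symbol, 7671 reached at least 1 FPKM (fragments per kilobase of transcript, scaled to mapped fragments) in at least 3 of the 9 libraries. These 7671 expressed loci, selected on their FPKM, are the subject here, and 12852 rows with a symbol that reached the same level were the rows they were set against. The identifiers split the loci into 3 classes. A number of the merged assembly (MERGE) over at least 1 locus of NONCODE, a catalogue of noncoding RNA genes, was given to 5012 loci. A MERGE number with neither a reference locus nor coordinates was given to 2489 loci, and 170 loci kept a NONCODE identifier of their own (NONMMUG).

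All mice carried Krt14 cre, a Cre recombinase under the promoter of keratin 14, a gene of basal keratinocytes, together with the Rosa26-mTmG reporter, which changes membrane colour after recombination. Cells were taken without culture and sorted into a CD49f-neg, a CD49f-low and a CD49f-high gate of mesenchymal cells, with 3 libraries (replicates 1 to 3) per gate. CD49f is the integrin α6 subunit, encoded by Itga6, whose row (joined from 5 loci) stood at 0.283 to 0.710 FPKM (CD49f-neg), 4.38 to 6.09 FPKM (CD49f-low) and 15.9 to 24.1 FPKM (CD49f-high). The labels name no treatment, and they do not say whether the libraries of a gate came from separate animals, so p-values measure the spread between these libraries, which may be technical.

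The gates differed in markers of several cell types. The summed FPKM of 10 fibroblast markers was 14408 to 17396 in CD49f-neg, 5816 to 7041 in CD49f-low and 4194 to 6237 in CD49f-high. The sum of 10 melanocyte markers was 2.73 to 4.15, 450 to 548 and 22.8 to 53.9 in the same order, and that of 10 mural cell markers 51.1 to 62.3, 96.8 to 177 and 796 to 1465. The sum of 10 Schwann cell markers was 7.12 to 9.46, 28.4 to 39.5 and 45.7 to 233. None of the melanocyte, mural, Schwann cell or fibroblast markers was at 0 in all libraries of a gate. These markers move with the gates beside every comparison below, and their part in the results was not tested. In sorted populations, fewer cells of a type and less RNA per cell cannot be told apart. Relative depth, read from the spacing of the lowest values of single-exon genes, was 0.941 to 1.08 of that of CD49f-neg replicate 1.

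Much of a mammalian genome is copied into RNA that encodes no protein. Some of it is long noncoding RNA with its own promoter, and some is made with a gene: introns are transcribed along with their gene before splicing removes them, transcription runs on past the 3′ end, and many promoters fire in both directions. A transcript assembler turns reads from all of these into models, and a model that matches no named gene becomes a locus without a symbol.

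A few loci without a symbol could be tied to known RNA by sequence. MERGE.16439 and MERGE.24019, the most abundant loci after a mitochondrial one, covered the whole of 2 predicted miscellaneous RNA genes of GENCODE M21, Gm24447 (chr15:93234363-93234700, plus strand) and Gm26315 (chr2:7076094-7076414, minus strand; GRCm38). Their sequences are shown because each holds a partial copy of 7SK RNA, an abundant nuclear RNA that keeps a transcription elongation factor inactive. The capitals mark the stretch that aligned to Rn7sk, and the letters are the first 260 bases of the GENCODE transcripts.
Gm24447: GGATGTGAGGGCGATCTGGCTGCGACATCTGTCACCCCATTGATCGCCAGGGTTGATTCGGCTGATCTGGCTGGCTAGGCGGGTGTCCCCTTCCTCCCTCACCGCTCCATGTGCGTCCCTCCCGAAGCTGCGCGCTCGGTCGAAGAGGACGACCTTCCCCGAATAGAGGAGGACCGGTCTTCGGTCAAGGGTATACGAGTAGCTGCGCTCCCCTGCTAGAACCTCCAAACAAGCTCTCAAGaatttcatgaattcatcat
Gm26315: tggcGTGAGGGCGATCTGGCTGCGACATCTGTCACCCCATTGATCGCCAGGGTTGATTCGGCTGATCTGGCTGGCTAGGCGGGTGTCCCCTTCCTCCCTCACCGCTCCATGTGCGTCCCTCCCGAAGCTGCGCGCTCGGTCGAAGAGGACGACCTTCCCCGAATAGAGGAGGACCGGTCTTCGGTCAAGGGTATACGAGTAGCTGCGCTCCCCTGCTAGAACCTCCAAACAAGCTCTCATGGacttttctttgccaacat
The Gm24447 stretch matched Rn7sk in 241 of 241 bases and the Gm26315 stretch in 237 of 238, out of the 331 bases of Rn7sk. The row of Rn7sk itself held 21057 to 46442 FPKM across the libraries. MERGE.16439 held 7482, 9344 and 13194 FPKM in CD49f-neg, 8386, 9453 and 14661 in CD49f-low and 9465, 6977 and 14440 in CD49f-high. MERGE.24019 held 6271, 7499 and 10610, then 6989, 7612 and 11921, then 7582, 5590 and 11521 FPKM. Both were high in replicate 3 of every gate, and the gates overlapped. Reads that fit Rn7sk equally well may have been counted at either copy, so these levels are uncertain.

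Hairpins of 6 microRNA genes lay inside 4 of the loci on the same strand. MERGE.11564 (chr13:48181452-48545033, minus strand), which also overlaps an exon of Zfp169, spans the let-7 cluster of let-7a-1, let-7f-1 and let-7d, microRNAs known for holding back growth genes. NONMMUG024249.3 (chr2:117184666-117188015, plus strand) spans Mir674. Their mature sequences (RefSeq, GRCm38.p6) show which seeds the loci carry, with the seed, bases 2 to 8, in capitals.
let-7a-5p: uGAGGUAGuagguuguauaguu
let-7f-5p: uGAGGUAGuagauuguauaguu
let-7d-5p: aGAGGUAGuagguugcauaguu
miR-674-5p: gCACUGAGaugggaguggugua
miR-674-3p: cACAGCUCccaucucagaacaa
The 3 let-7 microRNAs share the seed GAGGUAG, and neither miR-674 arm has it. MERGE.11564 held 5.11, 4.93 and 3.95 FPKM in CD49f-neg, 5.02, 5.82 and 4.98 in CD49f-low and 4.34, 5.74 and 5.08 in CD49f-high. The gates overlapped, and no difference was called (limma moderated F test, adjusted p = 0.62). NONMMUG024249.3 held 1.03 to 3.84 FPKM and was not called either (adjusted p = 0.36), though it passed with the replicate number as a block (adjusted p = 0.010). The values are those of the whole locus, not of mature microRNA. These 2 loci were picked after their values were seen.

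Levels of the loci were low. FPKM chose the loci, so their levels are given as a description, with no test. The median of the mean FPKM over 9 libraries was 1.56 against 4.39 for rows with a symbol, and 308 loci (4.02%) reached a mean of 10 FPKM against 21.5% of rows with a symbol. Of the loci, 2882 (37.6%) were at or above 1 FPKM in all 9 libraries, and 1098 (14.3%) in exactly 3; for rows with a symbol these shares were 78.9% and 4.01%. The NONMMUG class was the lowest, with a median of 0.950 FPKM and 44.1% of loci at the minimum of 3 libraries. The library value that decides the selection, ranked 3 from the top, was 1.00002 FPKM in the locus just inside (MERGE.3865) and 0.99996 FPKM in the row just outside (MERGE.36862). Between 1 and 1.1 FPKM there were 554 loci, and 573 rows between 0.9 and 1 stayed out.

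Of the summed FPKM, the loci together held 11.8% ± 0.484 (SD, n = 3) for CD49f-neg, 14.8% ± 1.14 for CD49f-low and 15.0% ± 0.958 for CD49f-high. Much of this came from the 3 most abundant loci, with 5.90% ± 1.51, 7.77% ± 1.61 and 8.39% ± 1.71. Without the 10 most abundant of all rows the gates overlapped, with 12.7% to 14.3% in CD49f-neg, 13.7% to 14.5% in CD49f-low and 12.9% to 15.3% in CD49f-high. The most abundant, MERGE.49228, is the gene of the mitochondrial small ribosomal RNA, mt-Rnr1 (chrMT:70-1024). It held 5248, 11714 and 15856 FPKM in CD49f-neg, 13017, 16916 and 21296 in CD49f-low and 35450, 14764 and 17239 in CD49f-high. The gates overlapped, and CD49f-high replicate 1 was the highest library. Each library had 4813 to 6674 of the loci at 1 FPKM or more, with the fewest in CD49f-neg replicate 3 and the most in CD49f-low replicate 1.

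Replicates of a gate differed more at these loci than at rows with a symbol. The median SD within gates was 0.239 on the log2(FPKM + 1) scale against 0.181. The order was the same at matched levels, with 0.233 against 0.189 under 2 FPKM, 0.245 against 0.181 from 2 to 5 FPKM, 0.275 against 0.170 from 5 to 20 FPKM and 0.248 against 0.193 from 20 FPKM. MERGE loci with no reference locus spread the most (0.310). The plot of spread by level shows these medians.

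**Figure D1:**
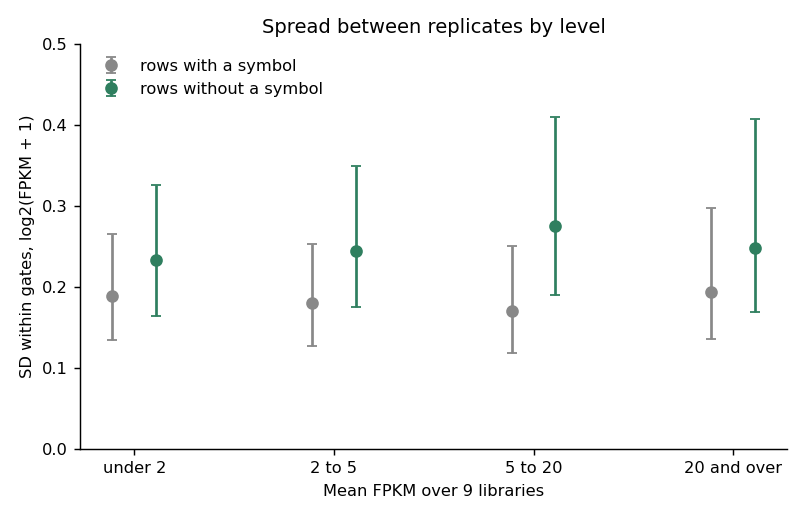
SD within gates of log2(FPKM + 1), by mean FPKM over 9 libraries. Points are medians over rows and bars run from the lower to the upper quartile. The loci without a symbol (green) sit above the rows with a symbol (grey) in each of the 4 level classes, most from 5 to 20 FPKM (0.275 against 0.170).

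Most loci with coordinates lay in introns. Of 5165 loci with a single interval, 3066 (59.4%) fell between the exons of an annotated gene on the same strand, 2832 of them in protein-coding genes. A further 1121 (21.7%) touched an annotated exon on the same strand, among them 473 of the GENCODE class TEC (models to be experimentally checked), 177 processed pseudogenes and 184 in coding genes. No annotated gene was overlapped by 697 (13.5%), and 233 touched an exon and 48 an intron on the opposite strand. The median interval was 1883 bases long. The library kit's strand setting is not given in the sources used here, so the strand is that of the reference, and sense and antisense reads cannot be told apart.

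Intronic loci followed their host gene. The 3066 loci lay in 1492 genes, 610 of which held several. For 2842 loci in 1424 hosts, the host row was tested too, and the log2 fold changes of locus and host correlated at 0.82 for CD49f-low over CD49f-neg, 0.87 for CD49f-high over CD49f-neg and 0.85 for CD49f-high over CD49f-low. With 1 mean value per host the correlations were 0.82, 0.86 and 0.85. Where locus and host were both called, they went the same way in 239 of 239, 534 of 534 and 433 of 433 pairs. The locus alone was called in 152, 105 and 111 pairs, and the host alone in 331, 488 and 362. For 1827 of these loci the nearest other coding gene was tested as well, and against it the same loci gave correlations of 0.08, 0.13 and 0.14. Where locus and that gene were both called, 45 of 63, 92 of 131 and 66 of 77 pairs went the same way. These correlations run over loci, which share libraries and, within a gene, a host, so they carry no p. Of the 3066 intronic loci, 271 passed the filter through 1 gate alone. That fixed the gate in which the locus was highest, but not the level of its host. Such loci with a tested host were not set aside here, so the correlations and counts of agreement are a description. The level of an intronic locus was 0.292 of that of its host at the median, with the middle 50% of pairs at 0.171 to 0.481, and 142 loci were above their host.

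**Figure D2:**
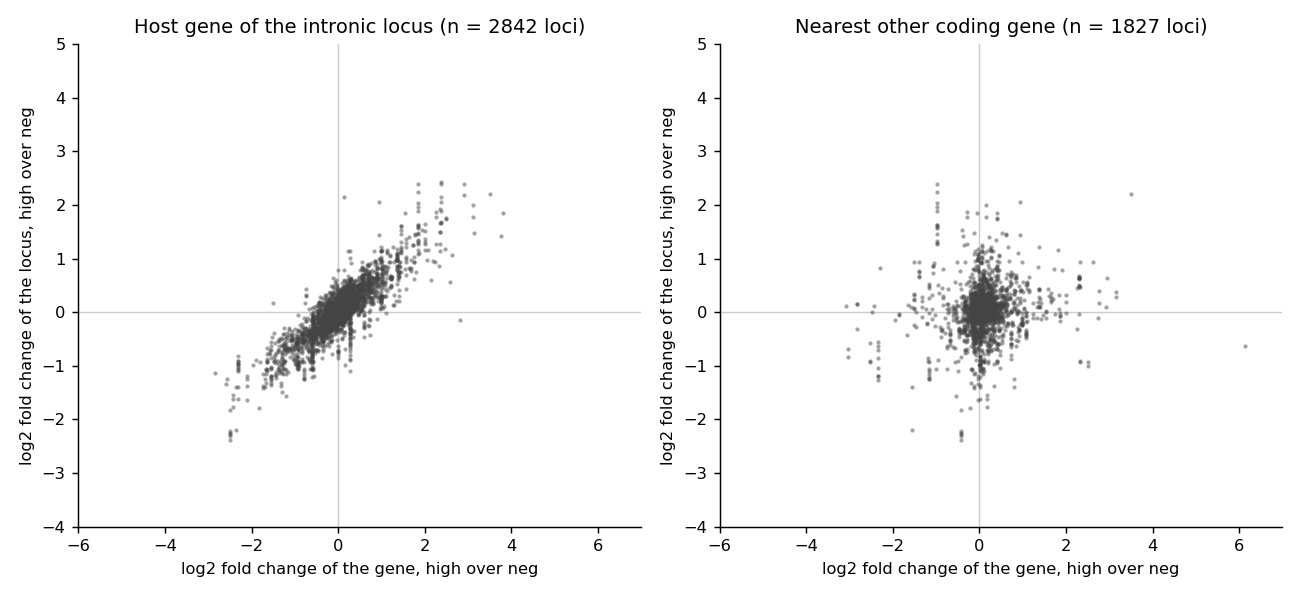
log2 fold change, CD49f-high over CD49f-neg on the log2(FPKM + 1) scale, of 2842 intronic loci (y axis) against their host gene (left, r = 0.87) and of the 1827 with a second tested gene against the nearest other coding gene (right, r = 0.13). Each point is 1 locus, and the points lie along a rising line only in the left panel.

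Loci just beyond a 3′ end also varied with their gene. For 187 intergenic loci within 5000 bases downstream of a coding gene on the same strand, the correlation with that gene was 0.72, 0.80 and 0.79. For 408 intergenic loci not so placed, the correlation with the nearest coding gene was 0.57, 0.44 and 0.41. With 1 mean value per gene the correlations were 0.71, 0.78 and 0.80 for the former and 0.35, 0.37 and 0.39 for the latter. Over loci, the correlation with the overlapped gene was 0.40, 0.58 and 0.48 for 178 loci over an exon on the opposite strand. MERGE numbers run along the genome by start (99.9% of neighbours with coordinates are on 1 chromosome and 96.1% are in order). A locus without coordinates is thus placed between named rows by number only, and it may lie inside the row numbered before. MERGE.15584, which has coordinates, is numbered after Trps1 and lies in an intron of it. The loci without coordinates correlated at 0.43, 0.52 and 0.41 with the row numbered before (1889 loci). With the row after (1909 loci) the values were 0.06, 0.14 and 0.15.

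The ratio of a locus to its host, taken within each library with a pseudocount of 0.1, was tested with limma over the 2842 pairs. It differed between CD49f-low and CD49f-neg in 5 pairs (0.176%), between CD49f-high and CD49f-neg in 77 (2.71%) and between CD49f-high and CD49f-low in 31 (1.09%). With a pseudocount of 1 the counts were 27, 331 and 122, and with the replicate number as a block 9, 147 and 82. Single libraries moved these counts. The first was 11 without CD49f-neg replicate 1. It was 3 when CD49f-high replicate 2 was left out, and 2 when CD49f-neg replicate 3 or any 1 of the CD49f-low libraries was. The second was 33 and 22 without CD49f-neg replicates 2 and 3, and 46, 49 and 35 without CD49f-high replicates 1 to 3. The last was 12, 15 and 10 without CD49f-low replicates 1 to 3 and 15 without CD49f-high replicate 3. The 5 pairs of the first contrast lay in Serpine2, Pax3, Slc24a5, Tmem51 and Kit, and in all of them the locus rose less than its host. Kit, the receptor for stem cell factor, and Slc24a5 serve in melanocytes, and Pax3 is a regulator of the melanocyte lineage. The Kit locus MERGE.35247 held 0.124, 0.0595 and 0.0535 FPKM in CD49f-neg and 1.30, 1.42 and 2.78 in CD49f-low, while Kit itself went from 0.581, 0.350 and 0.404 to 19.5, 21.2 and 28.6. The log2 ratio fell by 2.03 ± 0.19 SE (adjusted p = 0.00075). The CD49f-neg values of this locus lie near the pseudocount of 0.1, which pulls the ratio there towards 0 and enlarges the fall. The Kit, Pax3 and Slc24a5 loci were at 1 FPKM or more in CD49f-low alone, so the filter fixed that they rose there. Their ratios and adjusted p only describe them.

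Zbtb20, a zinc finger repressor, held the most loci with a shifted ratio: 14 of the 77 in CD49f-high over CD49f-neg and 10 of the 31 in CD49f-high over CD49f-low, all lower. Its introns (chr16:42875881-43642602) hold 32 loci, whose median stood at 1.45, 1.69 and 2.07 FPKM in CD49f-neg, 3.23, 2.23 and 3.22 in CD49f-low and 0.831, 0.854 and 1.05 in CD49f-high. The Zbtb20 row held 1.69, 2.33 and 2.24, then 4.02, 3.12 and 3.71, then 1.76, 3.46 and 3.19 FPKM. So the loci were lowest in CD49f-high, where 2 of 3 host values lay above every CD49f-neg value. Of the 32 loci, 31 fell from CD49f-low to CD49f-high, while the host differed by -0.31 ± 0.19 (adjusted p = 0.30). After median-of-ratios scaling 25 fell, and with each library left out 23 to 31. The host row joins 9 loci, one of them Mir568, and is uncertain as a measure of Zbtb20 alone.

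**Figure D3:**
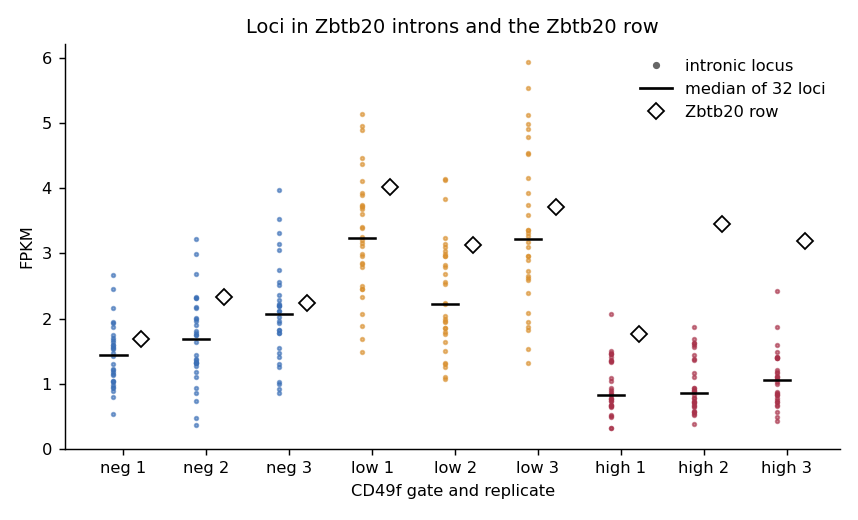
FPKM of 32 intronic loci of Zbtb20 (dots), their median (bars) and the Zbtb20 row (diamonds) in each of the 9 libraries. In the CD49f-high libraries the medians, 0.831 to 1.05, lie below all other medians, while the diamonds reach 3.46.

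A moderated F test over the gates called 2152 loci (28.1%), beside 28.5% of all rows tested, which include the loci. The filter fixed part of this count. It was reached through 1 gate alone by 494 loci (145 through CD49f-neg, 206 through CD49f-low, 143 through CD49f-high) and by 322 rows with a symbol, and such a row had to differ. With these set aside, 1689 of 7177 loci (23.5%) were called, beside 3400 of 12530 rows with a symbol (27.1%). The difference between these shares was not tested. Between CD49f-low and CD49f-neg 945 loci rose and 210 fell (15.1%; of all rows 15.4%, with 12.8% higher and 2.62% lower). Between CD49f-high and CD49f-neg 873 rose and 750 fell (21.2%; of all rows 22.1%, with 13.9% higher and 8.27% lower), and between CD49f-high and CD49f-low 278 rose and 952 fell (16.0%; of all rows 16.4%, with 5.93% higher and 10.5% lower). With the replicate number as a block the calls were 2127 in the first contrast (27.7%, all rows 28.3%) and 2031 in the last (26.5%, all rows 25.9%). For CD49f-high over CD49f-neg the block called 30.9% of loci (all rows 31.2%). The F test with the block called 3404 loci, and its share of all rows was not computed. Without CD49f-neg replicate 2 or 3, or CD49f-low replicate 2 or 3, the first count was 750, 656, 720 and 684. These are 9.78%, 8.55%, 9.39% and 8.92% of the loci, beside 10.4%, 7.86%, 8.41% and 8.19% of all rows. Without CD49f-low replicate 3 the last contrast gave 812 (10.6%, all rows 10.7%). The low NONMMUG class was called least, in 5.29%, 12.4% and 7.06% of its 170 loci.

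The split by direction depended on scaling. The median log2 fold change over all rows was 0.21, 0.07 and -0.15 in the 3 contrasts as deposited, and -0.03, -0.02 and 0.01 after median-of-ratios scaling. Of the called loci, 81.8% were higher in CD49f-low than in CD49f-neg as deposited, 54.2% once scaled by median of ratios and 49.9% with quantiles equalized. For CD49f-high over CD49f-neg these shares were 53.8%, 45.3% and 40.3%, and for CD49f-high over CD49f-low 22.6%, 38.7% and 40.5%.

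Called higher in 1 gate than in each of the others were 184 loci for CD49f-neg (2.40%; all rows 2.16%), 372 for CD49f-low (4.85%; all rows 4.0%) and 259 for CD49f-high (3.38%; all rows 5.42%). Rows with a symbol gave 259 (2.02%), 449 (3.49%) and 854 (6.64%). Much of the loci's count was fixed by the filter, since 122, 157 and 129 of these loci had passed it through 1 gate alone. With such rows set aside there were 62 (0.864%), 215 (3.0%) and 130 (1.81%) among the other 7177 loci, beside 238 (1.90%), 375 (2.99%) and 666 (5.32%) among the other rows with a symbol. The differences between the shares were not tested. Where a locus named below was at 1 FPKM or more in 1 gate alone, its adjusted p only describes it. Scaled by median of ratios the loci numbered 308 for CD49f-neg and 184 for CD49f-low, with quantile normalization 323 and 184, and with the replicate block 285 and 708. Without CD49f-low replicate 1 or 3 the CD49f-low count was 246 or 207. The matching shares of all rows were not computed for these other settings. Whether such shifts are particular to the loci was thus not tested. Loci are not independent: 451 of 4976 with coordinates lay in 22 runs of 10 or more on 1 strand with gaps of up to 50000 bases.

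In CD49f-neg, 97 of the 184 loci belong to 1 long noncoding RNA gene. Gm32647 (chr7:94042691-94709171, plus strand, 666481 bases) is a lincRNA of GENCODE, here in 96 intronic loci and the row MERGE.42030, which spans the gene. MERGE.42030 held 2.23, 2.64 and 3.10 FPKM in CD49f-neg, 0.207, 0.173 and 0.189 in CD49f-low and 0.0838, 0.0209 and 0.0148 in CD49f-high. The median over the 97 loci was 2.68, 2.94 and 3.64, then 0.207, 0.173 and 0.190, then 0.111, 0.0227 and 0.0148 FPKM. All 97 passed the filter through CD49f-neg alone, with 3 libraries of this gate at 1 FPKM or more and the other 6 below, so the filter fixed that the gates did not overlap. Their levels are a description. Without them 87 loci (1.15%) stood highest in CD49f-neg. The strongest by the smaller of both folds were MERGE.42034, MERGE.42032 and MERGE.42038, close to the 5′ end. MERGE.42034 held 5.42, 6.43 and 6.77 FPKM against 0.469, 0.518 and 0.273 and 0.257, 0.0681 and 0.0366, a log2 fold change of -2.34 ± 0.14 for CD49f-low and -2.69 ± 0.14 for CD49f-high over CD49f-neg.

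Along Gm32647 the level in CD49f-neg fell with distance from the 5′ end and then stepped up. The first 66 intronic loci, up to 211 kb, fell from a mean of 5.49 FPKM over the first 5 to 1.69 over the last 5 (Spearman's rho with position -0.91). From 308 to 392 kb a second stretch of 27 loci reached 5.06 FPKM and fell again (rho -0.51), and 3 loci from 543 to 557 kb held 1.29 to 1.42. The loci share libraries and a gene, so rho is a description. The coding genes around Gm32647 are distant: Fam181b ends 960824 bases before it and Tenm4 starts 1462075 bases after it. Tenm4, a teneurin adhesion receptor, went the other way, with 1.1 to 1.65 FPKM in CD49f-neg and 3.53 to 8.78 in the other gates (log2 fold change 1.35 ± 0.26 in CD49f-high, adjusted p = 0.0053).

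**Figure D4:**
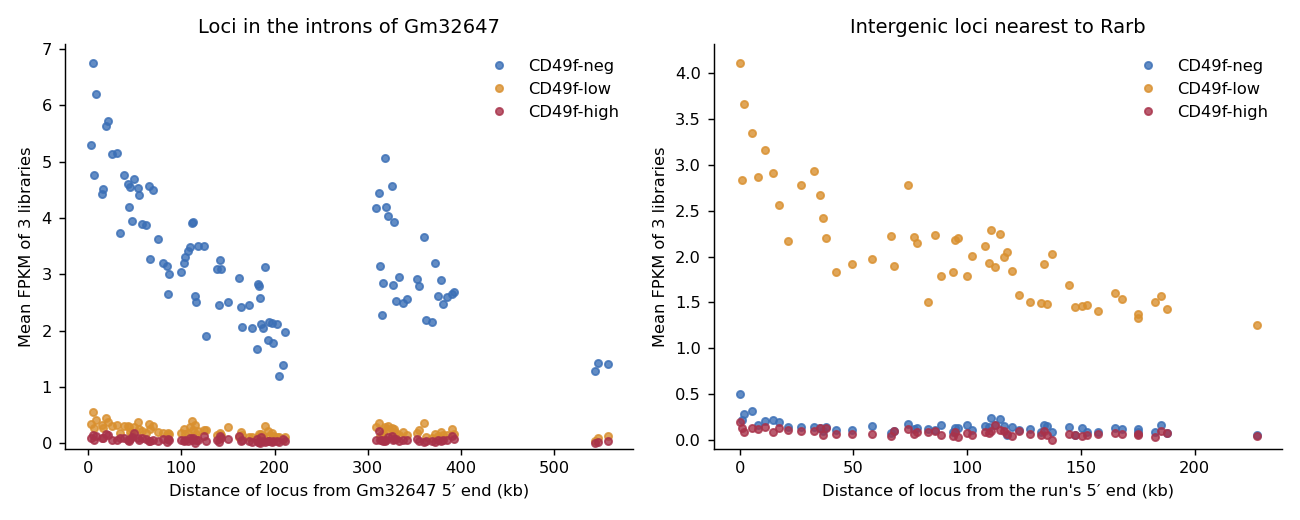
Mean FPKM of 3 libraries per gate for the 96 loci in introns of Gm32647 (left) and the 57 intergenic loci nearest to Rarb (right), against distance from the 5′ end in kb. On the left only CD49f-neg rises above 1 FPKM, on the right only CD49f-low. On the left the CD49f-neg level falls up to 211 kb and is higher again from 308 kb, and on the right the CD49f-low level falls along the run.

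In CD49f-low, 59 of the 372 loci form 1 run on the minus strand of chr14:16942279-17170738. Of these, 2 overlap annotated genes, and the 57 intergenic loci are described here. Their median length was 2151 bases, and the nearest coding gene is Rarb (retinoic acid receptor beta, chr14:16430839-16819156, also on the minus strand), whose 5′ end is 123123 to 350803 bases away. The median over the 57 loci was 0.124, 0.0926 and 0.144 FPKM in CD49f-neg, 2.00, 1.60 and 2.35 in CD49f-low and 0.133, 0.0747 and 0.0192 in CD49f-high. Of the 57, 56 passed the filter through CD49f-low alone, which fixed that the gates did not overlap, so these levels too are a description. The level fell from a mean of 3.37 FPKM over the 5 loci at the 5′ end to 1.42 over the last 5 (rho -0.85 over 57 loci, a description). Rarb itself held 0.671, 0.690 and 0.680 FPKM in CD49f-neg, 2.18, 1.46 and 1.82 in CD49f-low and 1.25, 1.11 and 0.893 in CD49f-high. It rose in CD49f-low over CD49f-neg by a log2 fold change of 0.74 ± 0.13 (adjusted p = 0.0052). Without these 57 loci, 315 (4.14%) stood highest in CD49f-low. The run and Gm32647 were picked after the values were seen.

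Other CD49f-low loci clustered too. Of 17 loci in introns of Lncpint, a long noncoding RNA gene under p53 control, 16 rose over CD49f-neg and 14 were highest in CD49f-low (9 of the 17 passed the filter through 1 gate alone), with medians of 0.726, 0.397 and 0.191, then 2.54, 1.94 and 1.47, then 0.559, 0.675 and 0.753 FPKM. A run of 20 intergenic loci on chr13, 18765 to 85147 bases from the prolactin family gene Prl2c3, gave 10 more, with medians of 6.98, 5.91 and 4.56, then 8.80, 9.74 and 9.44, then 6.06, 6.93 and 4.59 FPKM. Prl2c3 has near-identical neighbours, so reads there are uncertain. By the naming rule the leading loci were MERGE.46776, MERGE.33259 and MERGE.39504, all without coordinates. In this order they are numbered between Sept7 and Eepd1, Sytl1 and Wdtc1, and Plekhg6 and Lpar5. MERGE.46776 held 0.195, 0.0804 and 0.0770 FPKM in CD49f-neg, 4.89, 6.68 and 7.68 in CD49f-low and 0.443, 0.931 and 0.247 in CD49f-high (2.71 ± 0.19 over CD49f-neg, adjusted p = 2.9e-05). MERGE.33259 went from at most 0.286 FPKM to 1.92, 9.24 and 4.51, and MERGE.39504 from 3.39, 1.86 and 1.56 to 10.4, 11.2 and 9.67. The largest rise over CD49f-neg was at MERGE.15706, numbered between Trib1 and Fam84b. It held 0.292, 0.281 and 0.0769 FPKM in CD49f-neg against 6.94, 30.4 and 17.5 in CD49f-low (3.78 ± 0.56, adjusted p = 0.0020). CD49f-high lay between them at 2.19, 12.8 and 4.99.

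Of the NONMMUG class, NONMMUG092423.1 was the 1 locus that met the rule for fold changes. It lies 1496 bases beyond Ctnnd1, the p120 catenin gene, and held 4.43, 2.66 and 3.50 FPKM in CD49f-neg and 7.13, 5.06 and 6.15 in CD49f-low (0.66 ± 0.17, adjusted p = 0.031). The call was lost under median-of-ratios scaling (0.38, adjusted p = 0.23) and under quantile normalization (0.43, adjusted p = 0.20), and also without CD49f-neg replicate 2 or 3 or CD49f-low replicate 1 or 3 (adjusted p = 0.087, 0.088, 0.093 and 0.093). The most abundant of the class, NONMMUG009732.2 at an exon of Foxn3, held 8.88 to 14.2 FPKM in all gates.

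The hosts with the most loci highest in CD49f-high were Sox5 and Prkg1 with 14 each and Slc8a1 with 9. All 14 loci in Sox5, a SOX family transcription factor, passed the filter through CD49f-high alone and had to be highest there, with medians of 0 in each CD49f-neg library, 0.244, 0.226 and 0.352 FPKM in CD49f-low and 2.57, 1.64 and 2.19 in CD49f-high. The Sox5 row stood at 0.00484 to 0.0200, 0.406 to 0.570 and 2.43 to 2.91 FPKM. Of 16 loci in Prkg1, the cGMP-dependent protein kinase of smooth muscle, 14 were highest in CD49f-high, as were 9 of 10 in Slc8a1, a sodium-calcium exchanger. Through 1 gate alone passed 10 of the Prkg1 loci and 0 of the Slc8a1 loci. Prkg1 loci had medians of 0.690, 0.323 and 0.388, then 0.844, 0.384 and 0.644, then 2.81, 1.26 and 1.82 FPKM.

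The naming rule gave these loci for CD49f-high. MERGE.39533 (chr6:126637797-126640104) lies 293 bases beyond the 3′ end of Kcna1, a voltage-gated potassium channel gene, and held 0.0318 to 0.0344 FPKM in CD49f-neg, 0.0418 to 0.215 in CD49f-low and 3.67, 17.3 and 25 in CD49f-high (3.66 ± 0.50 over CD49f-neg, adjusted p = 0.00071). Kcna1 tracked it at 3.80, 16.7 and 22.4 FPKM in CD49f-high and at most 0.178 elsewhere. MERGE.2511 is numbered between Rgs5, a pericyte regulator of G protein signalling, and Rgs4, and held at most 0.440 FPKM outside CD49f-high and 11.4, 4.79 and 1.81 in it (2.52 ± 0.42, adjusted p = 0.0022), where Rgs5 held 462, 269 and 336. MERGE.27165, numbered after the myosin light chain gene Myl9, rose most over CD49f-neg. It went from 0.456, 0.721 and 3.53 FPKM to 53.0, 25.2 and 31.7 (4.0 ± 0.44, adjusted p = 0.00018), with CD49f-low at 6.47, 10.7 and 13.

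MERGE.33940, in an intron of the zinc finger regulator Prdm16, went from at most 0.0696 FPKM in CD49f-neg to 1.90, 6.95 and 9.62 in CD49f-high (2.60 ± 0.38, adjusted p = 0.0011). MERGE.15595, numbered between Med30 and Ext1, went from at most 0.0624 to 3.09, 5.23 and 6.99 FPKM (2.53 ± 0.22, adjusted p = 4.7e-05). MERGE.27746 (chr3:5860338-6049710), over the predicted microRNA Gm25352, held 278, 37.0 and 421 FPKM in CD49f-low and 2490, 1797 and 566 in CD49f-high (3.05 ± 0.83, adjusted p = 0.034). That call is lost without the filter (adjusted p = 0.091) and in the fit of both gates alone (adjusted p = 0.074). It is also lost without CD49f-neg replicate 2 or 3, CD49f-low replicate 2 or CD49f-high replicate 1 or 2 (adjusted p = 0.054, 0.051, 0.051, 0.091 and 0.094), and without CD49f-low replicate 2 the log2 fold change is 1.99. MERGE.17844, numbered between Filip1l and Col8a1, held 161 to 708 FPKM in the other gates and 1184, 2199 and 803 in CD49f-high, which differed from CD49f-neg (1.96 ± 0.58, adjusted p = 0.038), although the F test over the gates gave an adjusted p of 0.056, or 0.016 with the replicate block.

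Loci of Trps1, a GATA-type transcriptional repressor, were low in CD49f-high. All 6 intronic loci fell there against both other gates. MERGE.15584 (chr15:50776244-50779000) held 12.7, 12.7 and 22 FPKM in CD49f-neg, 19.7, 15.9 and 22.6 in CD49f-low and 2.84, 1.95 and 2.14 in CD49f-high (-2.62 ± 0.22 against CD49f-low, adjusted p = 7.2e-05). MERGE.15582 went alike (-2.59 ± 0.25). The Trps1 row, joined from several loci, fell from 18.6, 9.30 and 21.8 FPKM in CD49f-low to 2.96, 2.45 and 1.63 FPKM. MERGE.33483, without coordinates, held 8.20, 8.66 and 7.07 FPKM in the CD49f-low libraries, while 0 was listed in 2 CD49f-high libraries and in CD49f-neg replicate 2 (-3.10 ± 0.66, adjusted p = 0.011).

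**Figure D5:**
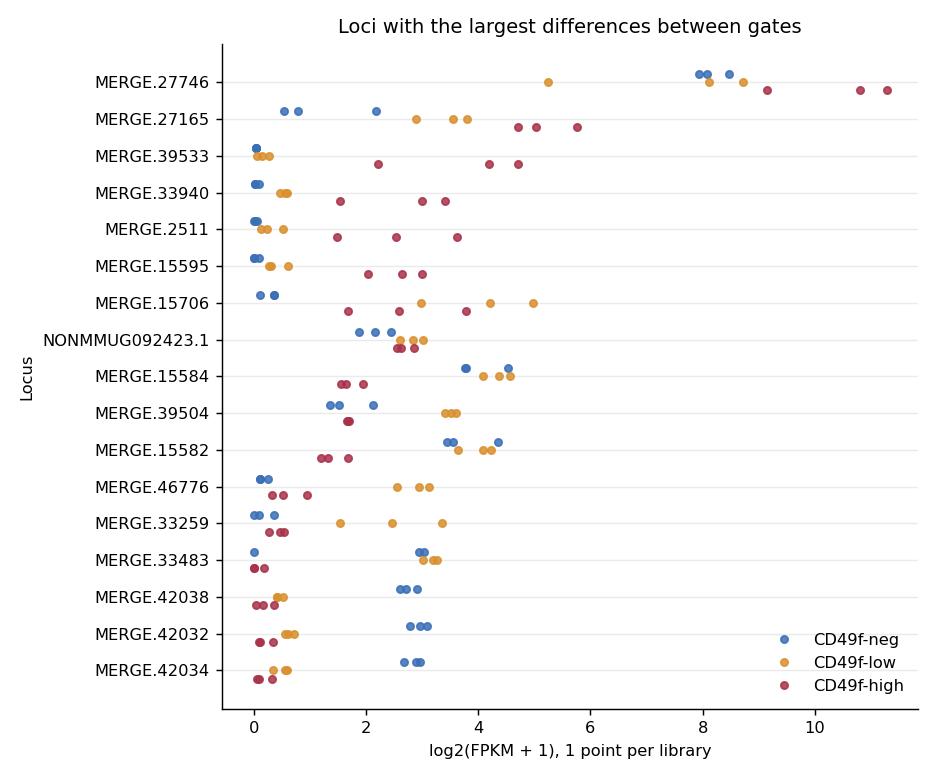
log2(FPKM + 1) of the 17 loci named for fold change or gate, 1 point per library, coloured by gate. The 3 Gm32647 loci at the bottom stand highest in CD49f-neg, and the loci from MERGE.15595 to MERGE.27746 stand highest in CD49f-high.

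Head to head with a coding gene, on the opposite strand with starts within 1000 bases, lay 135 loci. RefSeq promoters (250 bases before to 50 after the start) were given for 107 of these genes. They held a median of 28 CpG dinucleotides against 7 in the promoters of all 27025 genes, and the motif TATAAA on either strand in 7.48% against 14.2%. The 27025 genes were not limited to coding or expressed ones. Whether these values are particular to head-to-head genes was not tested. Pairs with both rows tested numbered 53. The F test called the locus in 9 (17.0%) and the gene in 7 (13.2%), and both in 2, beside 28.5% of all rows tested. The promoters of Zfp503 and Nol11 are shown for a pair in which both rows passed the F test and a pair in which the locus alone did, in the direction of the coding gene and with CpG in capitals; they are from GRCm38.p6, minus strand, at chr14:21989552-21989851 and chr11:107189332-107189631.
Zfp503: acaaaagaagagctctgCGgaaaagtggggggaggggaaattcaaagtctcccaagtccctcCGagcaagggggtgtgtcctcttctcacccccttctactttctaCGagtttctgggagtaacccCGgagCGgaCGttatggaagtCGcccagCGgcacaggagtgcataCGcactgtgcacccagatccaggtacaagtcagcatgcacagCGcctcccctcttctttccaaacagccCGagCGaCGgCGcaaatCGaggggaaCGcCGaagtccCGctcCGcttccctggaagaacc
Nol11: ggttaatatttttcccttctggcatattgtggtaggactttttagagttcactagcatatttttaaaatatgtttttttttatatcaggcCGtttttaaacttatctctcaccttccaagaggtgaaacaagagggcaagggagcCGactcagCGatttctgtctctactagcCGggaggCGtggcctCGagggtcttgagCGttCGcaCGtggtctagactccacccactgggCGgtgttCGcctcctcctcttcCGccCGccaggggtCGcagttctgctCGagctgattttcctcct
These windows hold 19 and 15 CpG. MERGE.13288 starts 144 bases from Zfp503, a zinc finger gene, and held 0.829, 2.18 and 2.04 FPKM in CD49f-neg, 1.15, 2.06 and 1.53 in CD49f-low and 0.311, 0.485 and 0.296 in CD49f-high, where Zfp503 fell from 29.1, 29.7 and 34.9 to 13.4, 11.9 and 13.9. Against CD49f-neg, both were lower in the CD49f-high gate, by log2 fold changes of -0.94 ± 0.22 (adjusted p = 0.013) and -1.20 ± 0.12 (adjusted p = 0.00011). MERGE.8229 (also over the pseudogene Gm11718) starts 92 bases from Nol11, a ribosome biogenesis gene, and held at most 0.0132 FPKM in CD49f-neg, 0.0834 to 0.529 in CD49f-low and 3.72, 2.12 and 3.07 in CD49f-high (1.96 ± 0.19, adjusted p = 7.4e-05). Nol11 held 2.92 to 3.22 FPKM in CD49f-neg and 3.86 to 4.55 in CD49f-high (0.36 ± 0.11, adjusted p = 0.044). MERGE.8229, among the 9 called loci, was at 1 FPKM or more in CD49f-high alone. The filter thus fixed that it differed, and its adjusted p only describes it. These pairs were picked after their values were seen.

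Noncoding RNA genes that do carry a symbol, long ones and others such as Rmrp, Rpph1 and Rn7sk, were listed for comparison. Of 30 listed, among them Malat1, Meg3 and H19, 17 were tested, and 2, 3 and 2 were called in the 3 contrasts, all lower, where 2.62%, 8.27% and 10.5% of all rows were called lower. Their median log2 fold changes were -0.00, -0.15 and -0.23, beside 0.21, 0.07 and -0.15 over all rows.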

How the data were processed

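RNA-seq was made from 3 libraries per CD49f gate (NEBNext Ultra kit, total RNA). Per the submitters' processing notes, which give no versions, FastQC, TopHat2, StringTie and GRCm38 were used; whether strand was kept is not given in the sources used here. The deposited unit is FPKM, which the authors computed per gene row. Rows without a symbol were kept at 1 FPKM or more in at least 3 of 9 libraries, including 17 rows that join several unnamed loci.

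Values were tested as log2(FPKM + 1) with limma 3.58.1 in R 4.3.3: 1 mean per gate, moderated variances with a trend, 6 residual degrees of freedom, and Benjamini-Hochberg adjustment over all 20523 rows that passed the filter, called under 0.05. Fold changes are on this scale and understate those of low rows. Positions came from the deposited coordinates and GENCODE M21 (both GRCm38), leaving out chromosome 18 where loci were named or joined into runs. The locus-to-host ratio, the runs, the host families and the counts without loci that passed the filter through 1 gate were added after the data were seen. FPKM holds no counts, so depth is known only relative to CD49f-neg replicate 1. The design cannot go below p = 0.10 in an exact test of 3 against 3, so none is given.

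Loci were named by rule: the 4 most abundant per identifier prefix (MERGE or NONMMUG), the 3 largest and 3 smallest called fold changes per contrast and prefix among loci whose gates do not overlap and whose higher gate averages 5 FPKM or more, and the 3 leading loci per gate. The loci and gene lists were chosen with earlier results of these data known. In the labels replicates are numbered alike in each gate. Deviations of same-numbered libraries from their gate means correlated at 0.25 to 0.52 in all 9 pairs, so the number was read as a pairing. The main fit ignores this pairing, as do all p-values given without mention of a block. A fit with the number as a block is given beside results that it moved. Fits were tested on simulated data with independent noise in each library. Changes were added on the log2(FPKM + 1) scale to 200 rows with a mean above 2 on that scale. For CD49f-high over CD49f-neg (20523 rows), 65% of 2-fold and 97% of 4-fold changes were recovered, with 6.36% false calls. Most loci lie lower (median 1.56 FPKM) and same-numbered libraries vary together, so these rates do not carry over to them. Further marker lists gave summed FPKM, in CD49f-neg, CD49f-low and CD49f-high, of 36.2 to 41.8, 124 to 152 and 17.0 to 27.6 for dermal papilla, 3.92 to 4.77, 11.9 to 21.0 and 31.4 to 68.2 for keratinocytes, and 1.98 to 4.65, 9.92 to 12.1 and 17.4 to 36.7 for endothelium. They were 2.65 to 4.06, 18.4 to 26.7 and 31.6 to 60.4 for skeletal muscle, 1.59 to 2.86, 3.00 to 3.96 and 2.09 to 3.52 for immune cells and 240 to 942, 149 to 585 and 73.6 to 579 for erythroid cells. Single markers did not always follow these sums. Of 10 dermal papilla markers, 5 were called higher and 3 lower in CD49f-high than in CD49f-neg. Trps1, which is in that list, held 14.5 to 22.0 FPKM in CD49f-neg and 1.63 to 2.96 in CD49f-high. Of 6 skeletal muscle markers tested, 1 was called higher and 4 lower in CD49f-high than in CD49f-low. Python 3.11.15, numpy 2.4.6, pandas 2.3.3, scipy 1.17.1, biopython 1.88 and matplotlib 3.10.9 were used.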

Additional observations from a re-analysis of the deposited data

How the results depend on the processing

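Among the named loci, 628 of 659 values under another setting kept their direction and side of the threshold, 25 lost the call, 6 gained it and 0 reversed; the calls of MERGE.32612 beside Foxd2 (F test, adjusted p = 0.11 scaled by median of ratios, 0.16 with quantile normalization, 0.12 without a filter), NONMMUG092423.1 and MERGE.27746 were lost under some settings. The causes were not tested. Loci named for fold change or gate were picked because they were called, with large changes, in these same data. Where such a locus passed the filter through a lone gate, the filter also fixed its direction. The tally thus describes the named loci and is no test of how stable the calls are.

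Counts are given in the order CD49f-low over CD49f-neg, CD49f-high over CD49f-neg, CD49f-high over CD49f-low, F test, then highest in CD49f-neg, CD49f-low and CD49f-high. They were 145, 208, 132, 255, 14, 33 and 22 at 5 FPKM or more in 3 libraries, 348, 423, 301, 605, 20, 86 and 48 at 1 FPKM or more in all 9, and 433, 609, 419, 949, 115, 117 and 106 with a fold of at least 2. The first 2 filters test fewer loci. Without a filter the last 3 were 356, 612 and 539. For the F test, counts highest in 1 gate and a fold of at least 2, shares of all rows were not computed under these settings. The same holds for the F test and counts highest in 1 gate after scaling, with the block or with 1 library left out. With the replicate block, which uses the pairing, the counts were 2127, 2031 and 3404 for the first and last contrast and the F test, 285 and 708 highest in CD49f-neg and CD49f-low, and 9, 147 and 82 locus-to-host ratios. It changed no call of a locus named for its fold change or gate, but these loci were picked because they were called. Highest in CD49f-neg were 308 and 323 after median-of-ratios scaling and quantile normalization, and 87 without Gm32647; highest in CD49f-low were 184 and 184. Without the loci that passed the filter through 1 gate alone, set aside after seeing the data, 62, 215 and 130 stood highest in 1 gate. A ratio pseudocount of 1 gave 27, 331 and 122.

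Leaving out 1 library gave 656 to 1291, 1113 to 1775, 812 to 1347 and 1605 to 2346 calls. In the 3 contrasts these are 8.55% to 16.8%, 14.5% to 23.1% and 10.6% to 17.6% of loci. Of all rows, 7.86% to 18.3%, 15.7% to 22.7% and 10.7% to 17.5% were called. Highest in 1 gate were 145 to 189, 207 to 365 and 189 to 309 loci. Ratios called numbered 2 to 11, 22 to 110 and 10 to 38, and the median SD was 0.222 to 0.244. That SD was 0.388 with a pseudocount of 0.1 and 0.271 at 5 FPKM or more. The share of summed FPKM in CD49f-neg was 13.3% without the 10 most abundant rows. The CD49f-low libraries then stood at 14.5%, 13.7% and 14.5% and the CD49f-high libraries at 15.1%, 15.3% and 12.9%. Requiring at least 50% of a locus inside the gene gave 1050 exonic, 809 intergenic and 180 opposite-strand exonic loci.

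Depth behind single values is unknown, and 3 libraries per gate limit what can be detected. Joined rows, near-identical copies and unknown strand make single loci uncertain.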
